A study of Mus musculus with 23 samples.

Results

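The excitatory synapse carries a protein lattice behind its receptors, and this account follows 41 genes of that lattice and of the kinases and phosphatases that act on it. They were taken by name from a table of 45706 genes: 12 scaffolds, 8 genes of calcium/calmodulin signalling, 3 protein kinase C (PKC) genes, 7 genes of cyclic AMP signalling and protein kinase A (PKA), 5 phosphatase genes, 3 genes of CREB and ERK signalling and 3 genes of adhesion and spine actin. All 41 were found once in the table and all passed the filter on low counts. Hippocampal RNA came from female mice of 2 genotypes, Ins2+/+ (WT, 12 libraries) and Ins2-/- (KO, 11 libraries). Ins2 is one of the mouse's insulin genes. How the allele was made, the age and the strain of the mice are not given in the labels, and the labels do not say outright that each library is a separate animal, so p-values measure the spread between libraries. The series title asks about brain insulin production, learning and memory.

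At a glutamate synapse, calcium entering through NMDA receptors binds calmodulin, which activates the CaM kinases and the phosphatase calcineurin. Scaffolds of the DLG, DLGAP, SHANK and HOMER families hold receptors, kinases and actin regulators together in the spine. Cyclic AMP made by calcium-sensitive adenylyl cyclases activates PKA, and both routes reach the transcription factor CREB. These events are central to long-term potentiation in the hippocampus, the form of plasticity most studied as a basis of memory.

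Library totals ran from 13792274 to 22953261 counts. Ins2 itself had 0 counts in all 11 KO libraries, which allows up to 0.0156 CPM (counts scaled to a common library total) over their summed reads, against 26 counts summed over 7 of the 12 WT libraries. Of these, 18 came from WT library 17, which had the highest choroid plexus marker score, and without it 8 counts in 6 libraries were left, so detection in WT was sparse. That limit covers counting error only. Markers of the labelled tissue were present in all libraries, but KO library 8 stood apart. The log2 CPM of its dentate gyrus markers averaged 2.64 (4.85 to 5.78 in the others), its CA1 markers 3.92 (5.26 to 6.18) and its CA3 markers 3.61 (4.29 to 5.17). The 12 hypothalamic markers summed to 1504 CPM in KO library 8, to 3.76 to 12.1 CPM in WT and to 2.58 to 11.6 CPM in the other KO libraries. None of the hippocampal markers was at 0 in KO library 8, and its 10 neuronal markers averaged 9.08, inside the range of the others (8.94 to 9.48). Its thalamic and habenular markers (4.36 against 2.46 to 3.55) were also above every other library. Its striatal markers had the highest sum (233 CPM against at most 193), but their mean log2 CPM (3.92) was below that of WT library 15 (4.04). The edgeR fold changes are therefore given with and without KO library 8. DESeq2 and voom were run with it only. Choroid plexus markers were above a mean log2 CPM of 4 in 5 libraries (WT 14 and 17, KO 2, 6 and 12). In bulk tissue, fewer cells of a type and less RNA per cell cannot be told apart.

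Within WT hippocampus the levels spanned more than 2 orders of magnitude. Set per kilobase of annotated exon, which allows genes to be compared, neurogranin (Nrgn) stood highest at 620.4 ± 62.4 CPM per kb (SD, n = 12). Neurogranin holds calmodulin near the membrane and releases it when calcium rises. Camk2a, the alpha subunit of CaM kinase II, followed at 508.5 ± 57.1 CPM per kb, and their ranges, 493 to 722 and 406 to 587, overlapped. The calcineurin subunits Ppp3r1 (regulatory, 338 ± 24.3) and Ppp3ca (catalytic, 237 ± 23.9) came next, beside Ppp1r9b, which encodes spinophilin, the protein that targets protein phosphatase 1 to spines (234 ± 15.2). Ppp3ca and Ppp1r9b did not differ beyond their spread. Camk2b followed at 153 ± 20.5 CPM per kb. At the low end were Camk2d at 1.77 ± 0.501 and Adcy8, a calcium-stimulated adenylyl cyclase, at 2.06 ± 0.335 CPM per kb, whose ranges also overlapped. Exon lengths are of all annotated isoforms together, so the level of a gene with long alternative exons is understated.

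**Figure D1:**
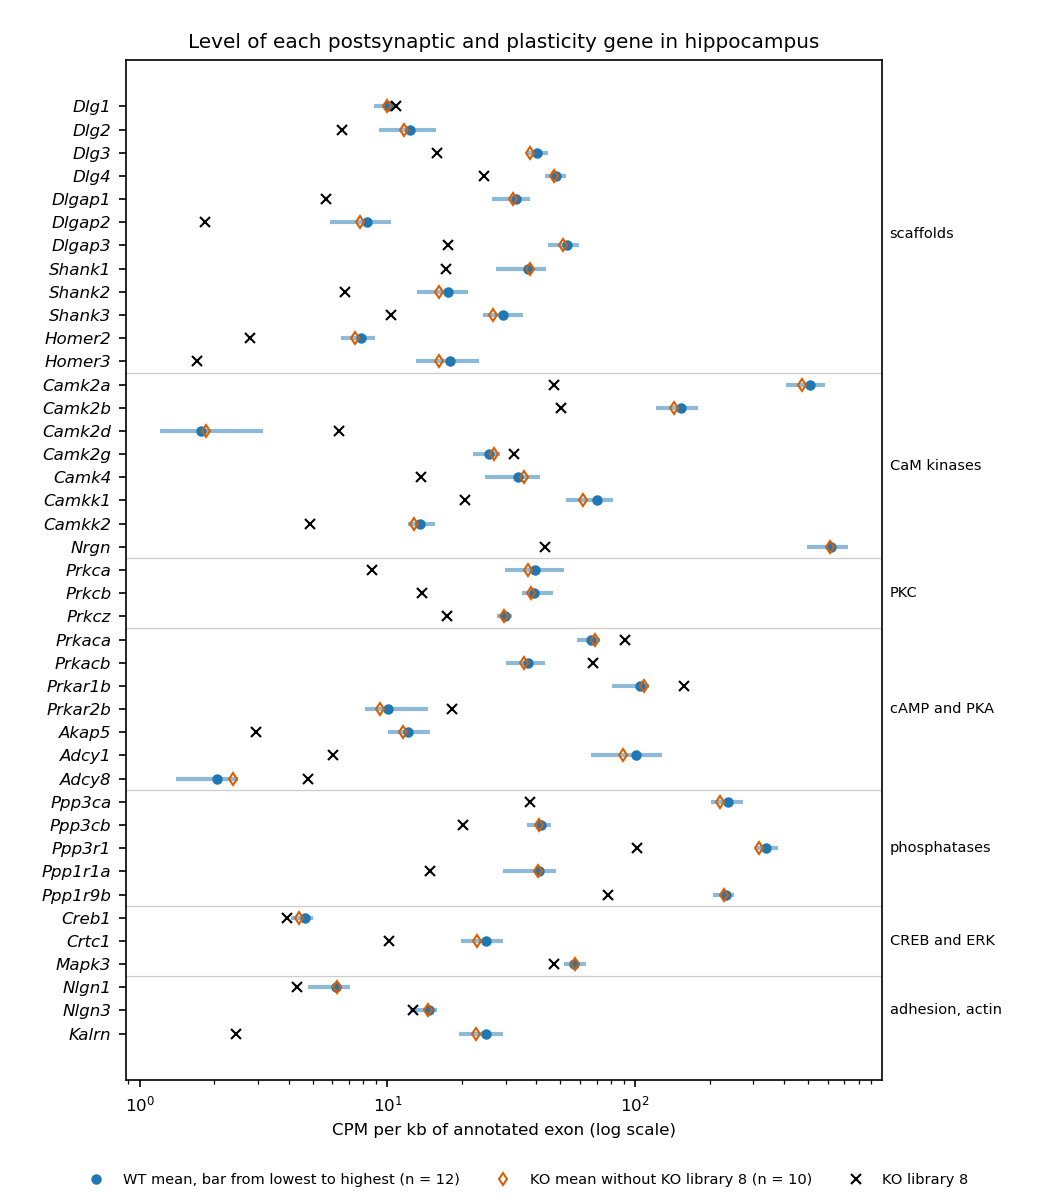
Level of each gene in CPM per kb of annotated exon (log axis), grouped by role. Blue points are WT means with bars from the lowest to the highest of 12 libraries, open diamonds are KO means over 10 libraries and crosses are KO library 8. WT and KO symbols lie close together from Camk2d at 1.77 to Nrgn at 620.4, while most crosses lie to the left.

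Between WT libraries the coefficient of variation of a gene was 3.74% for Prkcz, the atypical PKC zeta, and 28.3% for Camk2d at the extremes, with a median of 10.5% over the 41 genes. All 15828 genes tested had a median of 12.2%, and the 8647 of them at least as high as the lowest of the 41 genes had 8.79%. Low values gathered in some libraries. The extremes within each genotype were counted over these 41 genes only, so whether the same libraries stand out for genes in general is not known. WT library 15 held the lowest WT value of 17 of the 41 genes and WT library 17 of 11, while the highest WT values were spread over 10 of the 12 libraries, at most 7 genes each. Among the KO libraries other than 8, the lowest values lay mainly in KO libraries 6 (12 genes), 13 (11) and 12 (9), and KO library 22 held the highest value of 18 genes. WT library 15 also had the highest striatal marker score of the 22 libraries (4.04, against 1.96 to 2.84 in the other WT libraries and 2.02 to 2.77 in KO), as well as the lowest dentate gyrus (5.005) and CA3 (4.64) scores and the highest oligodendrocyte score (9.004) among WT. WT library 17 had the highest choroid plexus score (8.23). KO library 22 had the highest dentate gyrus score among KO (5.74) and the lowest oligodendrocyte score of all libraries (7.67). KO libraries 6 and 12 had choroid plexus scores of 6.88 and 7.85. Their neuronal scores (9.16 and 9.01) were the lowest among the KO libraries other than 8. KO library 13 had a dentate gyrus score of 5.007, with only KO library 16 lower among these (4.85). The part of these scores in the extremes was not tested.

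The values of KO library 8 are described before the genotypes are compared. It was the lowest of the 23 libraries for 31 of the 41 genes and the highest for 7. Over all tested genes it was the lowest for 26.2% and the highest for 19.5%. The median log2 ratio of its level to the mean of the other 22 was -1.33 for the 41 genes and -0.04 for all tested genes. These are values of 1 library and carry no test.

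The scaffolds were low in KO library 8, in 11 of 12 cases below every other library. Dlg4, which encodes PSD-95, the main scaffold of the excitatory synapse, had 326 CPM there and 549 to 697 CPM elsewhere. Dlgap1, whose product links PSD-95 to SHANK proteins, had 101 CPM against 473 to 675 CPM. Homer3 was lower still, at 5.84 CPM against 39.5 to 80.7 CPM, 0.0995 of the mean of the others. The 3 SHANK genes, master scaffolds that join the DLGAP layer to HOMER and actin, held between 0.368 and 0.460 of that mean. Dlg1, encoding SAP97, was the exception at 117 CPM, inside the range of 94.6 to 123 CPM.

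Calcium signalling genes divided in the same library. Nrgn had 63.2 CPM against 716.5 to 1104 CPM in the others, and Camk2a 353 CPM against 2952 to 4378 CPM. Camk2b was at 458 CPM, below the lowest of the others at 1053 CPM. The remaining CaM kinase II subunits were the highest of all libraries: Camk2d reached 142.8 CPM (27.2 to 70.8 elsewhere) and Camk2g 207 CPM (142 to 192). Camkk1 and Camkk2, the kinases that activate CaM kinases I and IV, and Camk4 itself, a nuclear kinase of CREB, lay between 0.311 and 0.394 of the mean of the others. All 3 PKC genes and all 5 phosphatase genes were below every other library, with Ppp3ca at 376 CPM against 1912 to 2715 CPM.

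Within cyclic AMP signalling the subunits of PKA were high while its anchor was low. The catalytic genes Prkaca (227 CPM against 145 to 183) and Prkacb (595 against 259 to 380) were above every other library. So were the regulatory genes Prkar1b (599 CPM against 307.5 to 457) and Prkar2b (66.6 against 26.2 to 53.1). Akap5, which tethers PKA and calcineurin to the scaffold, had 20.1 CPM against 67.2 to 102. The calcium-stimulated cyclases were at opposite ends. Adcy1 had 75.8 CPM against 828 to 1604 CPM, the lowest ratio of the 41 genes at 0.0633, and Adcy8 had 39.1 CPM against 11.4 to 26.0 CPM. Creb1 (54.0 CPM) and Nlgn3, a neuroligin that binds presynaptic neurexins (117 CPM), were inside the range of the others, whereas Kalrn, a spine actin regulator, had 58.7 CPM against 469 to 707 CPM.

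**Figure D2:**
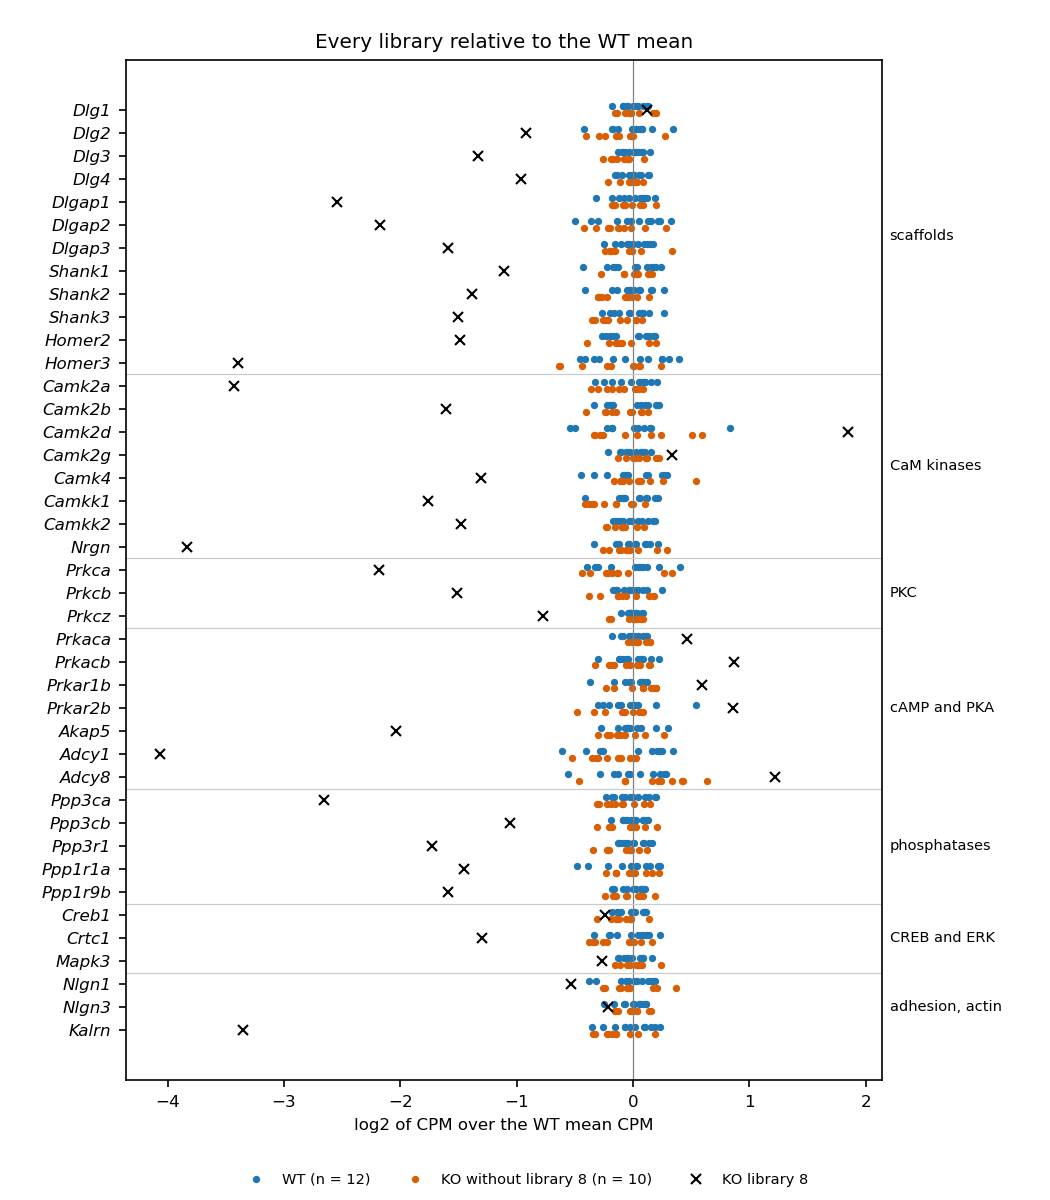
Every library as the log2 of its CPM over the WT mean CPM of the same gene. Blue points are WT (n = 12), orange points KO without library 8 (n = 10) and crosses KO library 8, which lies below all points for 31 genes and above all points for 7; the blue and orange points overlap for every gene.

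KO was then compared with WT in all 23 libraries with edgeR's quasi-likelihood test. None of the 41 genes passed the Benjamini-Hochberg threshold of 0.05 over the 15828 genes tested, where the background of calls was 0.0126%. Unadjusted, 2 of 41 reached p below 0.05, 1 higher and 1 lower in KO, and the background was 5.74% (3.41% higher and 2.34% lower). DESeq2 also called 0 of 41, with 2 at an unadjusted p below 0.05, 1 higher and 1 lower (background 6.17%, with 3.84% higher and 2.32% lower). The limma voom fit with quality weights called 0 of 41, with 10 at an unadjusted p below 0.05, 1 higher and 9 lower (background 17.5%, with 7.54% higher and 10% lower). WT and KO values overlapped for each of the 41 genes, and 0.0126% of all tested genes did not overlap. Log2 fold changes ran from -0.32 (Adcy1) to 0.36 (Camk2d) with a median of -0.15, and 33 of 41 were below 0. For all tested genes the median was 0.00 and 49% were below 0. Many of these genes move together between libraries, so their shared sign is not 41 separate observations. In data simulated for this comparison of 23 libraries, 38 of 50 genes changed by 1.5-fold were called and 9 of 50 changed by 1.2-fold. The changed genes were drawn from all tested genes, each gene was simulated independently, and no library was set apart. More genes were changed than were called in the real data. The 41 genes had a median standard error of 0.1195, against 0.0881 for all tested genes, so recovery may be lower for them.

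Without KO library 8 the count stayed at 0 of 41, against a background of 0.0126%. Unadjusted, 2 genes reached p below 0.05, both lower in KO, and the background was 4.11% (2.18% higher and 1.93% lower). The median log2 fold change moved to -0.05, with 31 of 41 below 0 and 48.4% below 0 among all tested genes. The standard error was smaller for 41 of 41 genes, by a median factor of 1.73, and 38 of 41 estimates lay nearer 0. KO library 8 held the lowest value of 31 of these genes and the highest of 7. Leaving it out moves errors and estimates this way by arithmetic, so these counts are not a separate result. They were not made over all tested genes, whose median standard error went from 0.0881 to 0.0772. Without the 5 choroid plexus libraries 5 of 41 genes had an unadjusted p below 0.05 (background 9.14%), and without these and KO library 8 it was 7 (background 8.05%). With only KO library 8 left out, the 95% intervals of all 41 genes lay within 0.435 of 0 on the log2 scale.

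**Figure D3:**
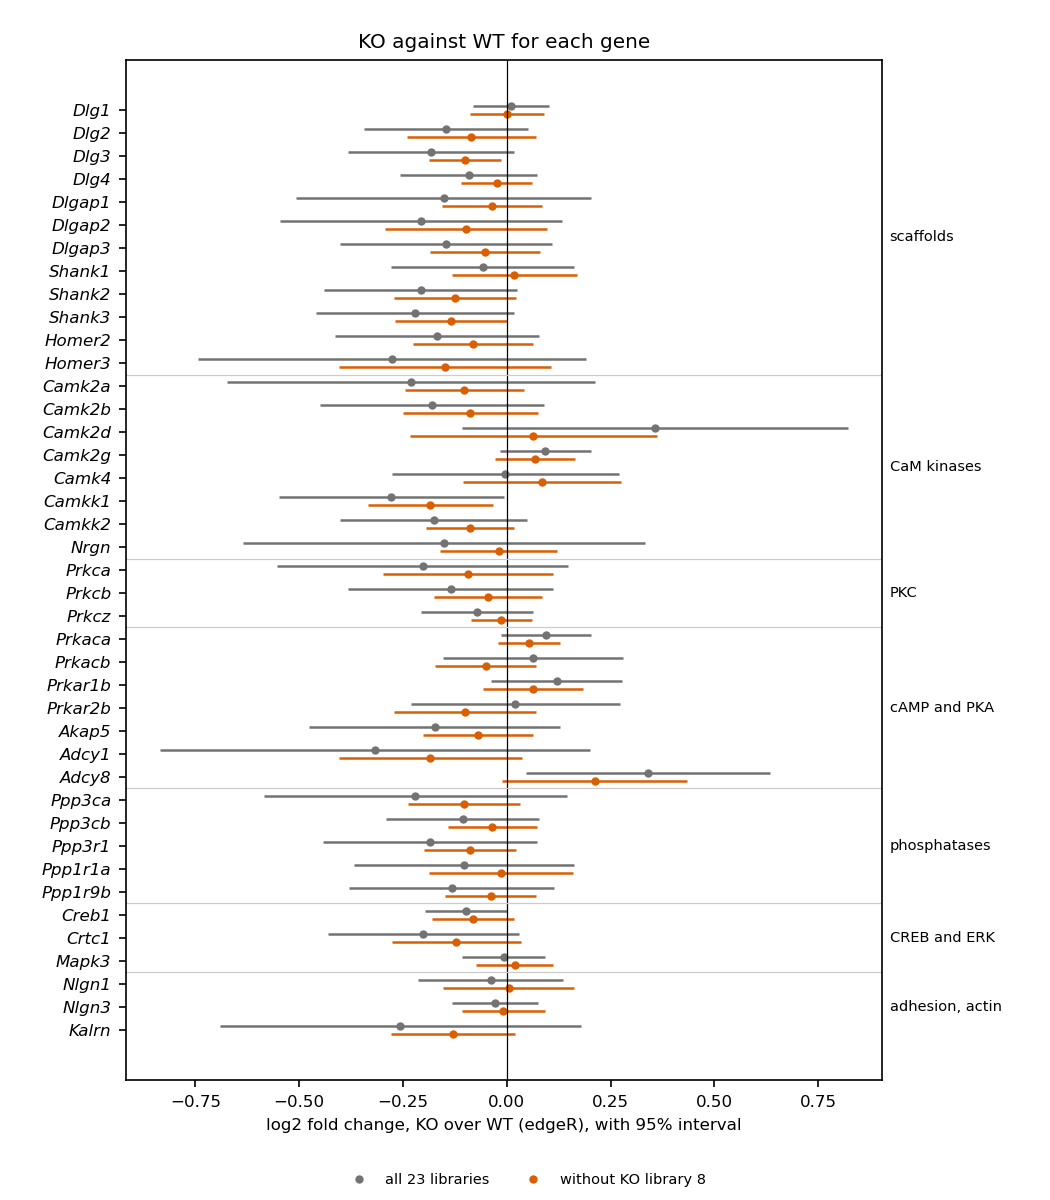
Log2 fold change of KO over WT from edgeR with its 95% interval, unadjusted for the number of genes, for all 23 libraries (grey) and without KO library 8 (orange). Orange intervals are shorter for each gene, and 39 of 41 include 0 in either fit.

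Among the scaffolds, 11 of 12 estimates were below 0 with all libraries and 10 of 12 without KO library 8. Dlg3, which encodes SAP102 on the X chromosome, had the smallest p of this group without that library. Its WT values were 214 CPM at the lowest, 236 at the median and 260.1 at the highest, and the other 10 KO libraries had 197, 218 and 251 CPM. The groups overlapped over most of their range. Its log2 fold change was -0.10 (95% interval -0.19 to -0.01; edgeR p = 0.0242, adjusted p = 0.967), and -0.18 with KO library 8. Dlg4 differed by -0.02 (-0.11 to 0.06) and Dlg1 by 0.00 (-0.09 to 0.09), and by -0.09 and 0.01 with all libraries. The SHANK estimates without KO library 8 were 0.02 for Shank1 (-0.13 to 0.17), -0.13 for Shank2 (-0.27 to 0.02) and -0.13 for Shank3 (-0.27 to 0.00), and with it -0.06, -0.21 and -0.22. Shank2 lies 1.26 Mb from Ins2 on chromosome 7 (144001928 to 144424494, GRCm38), the nearest of the 41 genes; the next, Mapk3, is 15.9 Mb away. Shank3 and Homer3 had fractional counts in all libraries and overlap the exons of a gene on the other strand (Gm15609 and Ddx49), so their levels are less certain.

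In calcium signalling, Camkk1 had an unadjusted p below 0.05 in both fits. WT libraries held 196 CPM at the lowest, 260.3 at the median and 303 at the highest. The 10 KO libraries held 196, 228 and 282 CPM, and KO library 8 held 76.9. KO libraries 16 and 8 were below the lowest WT value, and the other 9 KO libraries lay inside the WT range. The log2 fold change was -0.28 with all libraries (SE 0.131, edgeR adjusted p = 0.781) and -0.18 without KO library 8 (SE 0.0734, adjusted p = 0.967). CaM kinase II subunits differed less: without KO library 8, Camk2a by -0.10 (95% interval -0.25 to 0.04), Camk2b by -0.09 (-0.25 to 0.07), Camk2d by 0.06 (-0.23 to 0.36) and Camk2g by 0.07 (-0.03 to 0.16). With KO library 8 included they were -0.23, -0.18, 0.36 and 0.09 in the same order. Nrgn differed by -0.02 (-0.16 to 0.12; -0.15 with all libraries), and Camk4 by 0.09 (-0.11 to 0.28; -0.003 with all libraries). PKC genes were at -0.09 (Prkca), -0.05 (Prkcb) and -0.01 (Prkcz), against -0.20, -0.14 and -0.07 with all libraries.

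Of the cyclic AMP genes, Adcy8 had an unadjusted p below 0.05 with all libraries (log2 fold change 0.34, SE 0.142, edgeR adjusted p = 0.781). WT libraries held 11.4 CPM at the lowest, 16.4 at the median and 20.4 at the highest, and the 10 KO libraries 12.2, 19.6 and 26.0 CPM. The highest value, 39.1 CPM, was that of KO library 8, and the groups overlapped. Without KO library 8 the log2 fold change was 0.21 (95% interval -0.01 to 0.44). It was 0.45 without the 5 choroid plexus libraries and 0.30 without these and KO library 8. Over the 10 fits, its unadjusted p was below 0.05 in 8, and its lowest adjusted p was 0.216, with voom. Adcy1 went from -0.32 with all libraries to -0.18 without KO library 8 (-0.40 to 0.04). Prkar1b had fractional counts in 34.8% of libraries and overlaps exons of Gm15672 on the same strand, so its level is less certain. The 4 PKA genes lay between -0.10 (Prkar2b) and 0.06 (Prkar1b) without KO library 8. Prkacb and Prkar2b changed sign when it was left out, from 0.06 to -0.05 and from 0.02 to -0.10. Prkaca and Prkar1b went from 0.10 to 0.05 and from 0.12 to 0.06. The anchor Akap5 was at -0.07 (-0.20 to 0.06), and at -0.17 with all libraries.

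The phosphatase group held 5 of 5 estimates below 0 in both fits, from -0.22 (Ppp3ca) to -0.10 (Ppp1r1a, encoding inhibitor 1 of protein phosphatase 1) with all libraries and from -0.10 to -0.01, for the same genes, without KO library 8. For CREB signalling without that library, Creb1 differed by -0.08 (-0.18 to 0.02) and its coactivator Crtc1 by -0.12 (-0.28 to 0.03). Mapk3, which encodes ERK1, was at 0.02 (-0.07 to 0.11). Of the adhesion genes, Nlgn1 was at 0.00 (-0.15 to 0.16) and Nlgn3 at -0.01 (-0.11 to 0.09), and Kalrn at -0.13 (-0.28 to 0.02). With all libraries Creb1 was at -0.10, Crtc1 at -0.20, Mapk3 at -0.01, Nlgn1 at -0.04, Nlgn3 at -0.03 and Kalrn at -0.26, so Mapk3 and Nlgn1 changed sign. Nlgn1 and Nlgn3 had fractional counts in most libraries and overlap exons of an annotated neighbour.

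Paralogs and subunits were also compared as ratios inside each library, which do not depend on scaling between libraries. Per kilobase, Camk2a exceeded Camk2b by 3.33-fold in WT and 3.30-fold in the 10 KO libraries (geometric means); the log2 ratio was 1.74 ± 0.117 (SD, n = 12) and 1.72 ± 0.0687 (SD, n = 10). KO library 8 had a ratio of 0.942, so Camk2b was slightly the higher there. Ppp3ca exceeded Ppp3cb 5.64-fold in WT, 5.40-fold in the 10 KO libraries and 1.87-fold in KO library 8. Dlg4 exceeded Dlg1 by 4.79-fold, 4.72-fold and 2.26-fold. The ratio of Camkk1 to Camkk2 had the smallest p of the 6 ratios tested: its log2 value was 2.36 ± 0.110 (SD, n = 12) in WT and 2.25 ± 0.131 (SD, n = 11) in KO, a difference of -0.12 (two-sided permutation test, p = 0.0331, adjusted over 6 ratios 0.198). Without KO library 8 it was -0.10 (permutation p = 0.063, adjusted 0.185). Prkaca to Prkacb and Prkar1b to Prkar2b differed by 0.11 and 0.16 without that library, both at an adjusted permutation p of 0.185. With all libraries these differences were 0.06 and 0.12. They were 0.003 and 0.06 when the choroid plexus libraries were left out and KO library 8 was kept. No ratio passed the threshold with or without KO library 8, and WT and KO ranges overlapped for all 6.

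**Figure D4:**
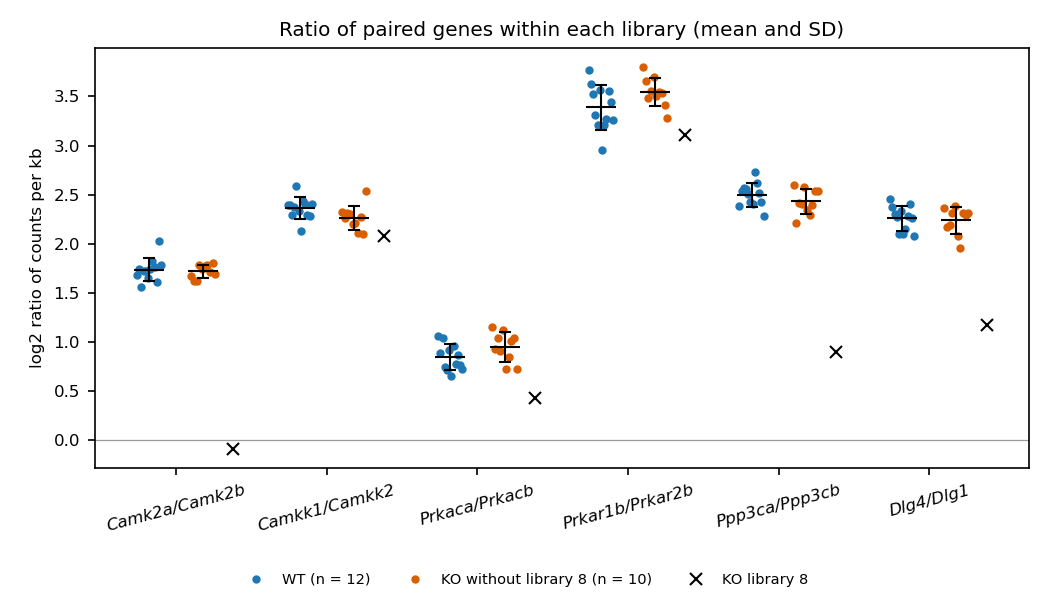
Log2 ratio of counts per kb of 2 genes within each library, with mean and SD as black bars. WT (blue, n = 12) and KO (orange, n = 10) overlap for each ratio, and KO library 8 (cross) lies at -0.09 for Camk2a to Camk2b, where the means are 1.74 and 1.72.

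The genes were also set against subfield marker levels. Each gene's log2 CPM was set against the mean log2 CPM of 9 dentate gyrus, 7 CA1 and 7 CA3 markers over the 22 libraries without KO library 8, 123 relations in all. With the dentate gyrus score, 17 of 41 genes had an adjusted permutation p below 0.05 for Pearson's r, 14 rising and 3 falling with the score. The smallest r among the called relations was 0.548 in size, and 16.2% of 13074 genes with a mean of at least 50 counts reached it with this score (9.35% rising and 6.83% falling). With CA1 it was 4 genes, 1 rising and 3 falling (background 2.39%, with 1.17% rising and 1.22% falling). With CA3 it was 3, all falling, a share near the background of 10% (3.31% rising and 6.73% falling). By Spearman's rho the counts were 15, 3 and 2. The scores are related to one another (r = -0.52 between dentate gyrus and CA1, 0.63 between dentate gyrus and CA3, n = 22), so they are not separate axes. The median r with the dentate gyrus score was 0.286 over the 41 genes and -0.039 over the same 13074 genes.

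Camkk1 had the highest Pearson r with the dentate gyrus score (r = 0.86, permutation p = 1e-05, adjusted 0.000615; rho = 0.845, permutation p = 1e-05, adjusted 0.000308; n = 22). This p is the smallest that the resampling can give. Its r was 0.815 without the 2 libraries farthest from the median score, 0.855 within WT, 0.839 within KO and 0.898 without the 5 choroid plexus libraries. Adcy1, a calcium-stimulated cyclase with a known role in potentiation, had the highest rho (r = 0.82, permutation p = 1e-05, adjusted 0.000615; rho = 0.852, permutation p = 1e-05), with r = 0.876 within WT and 0.734 within KO, and 0.83 without the farthest 2. Dlg3 (r = 0.789), Crtc1 (0.775), Kalrn (0.75) and Camk2a (0.713) rose with the score as well, at adjusted permutation p values of 0.00082, 0.000923, 0.00172 and 0.00451.

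Camk2d and Prkar1b fell as the dentate gyrus score rose. The other gene falling with it was Adcy8 (r = -0.568, adjusted permutation p = 0.0365; rho = -0.537, adjusted 0.0603). For Camk2d r was -0.61 (permutation p = 0.00229, adjusted 0.0228) and rho -0.552 (permutation p = 0.00871, adjusted 0.051). Its r was -0.504 in WT, -0.75 in KO and -0.55 without the farthest 2 libraries. For Prkar1b r was -0.577 (permutation p = 0.00421, adjusted 0.0335) and rho -0.639 (permutation p = 0.0014, adjusted 0.0189), with r = -0.567 in WT, -0.527 in KO and -0.499 without the farthest 2. Both genes were above every other library in KO library 8, where dentate gyrus markers were lowest.

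**Figure D5:**
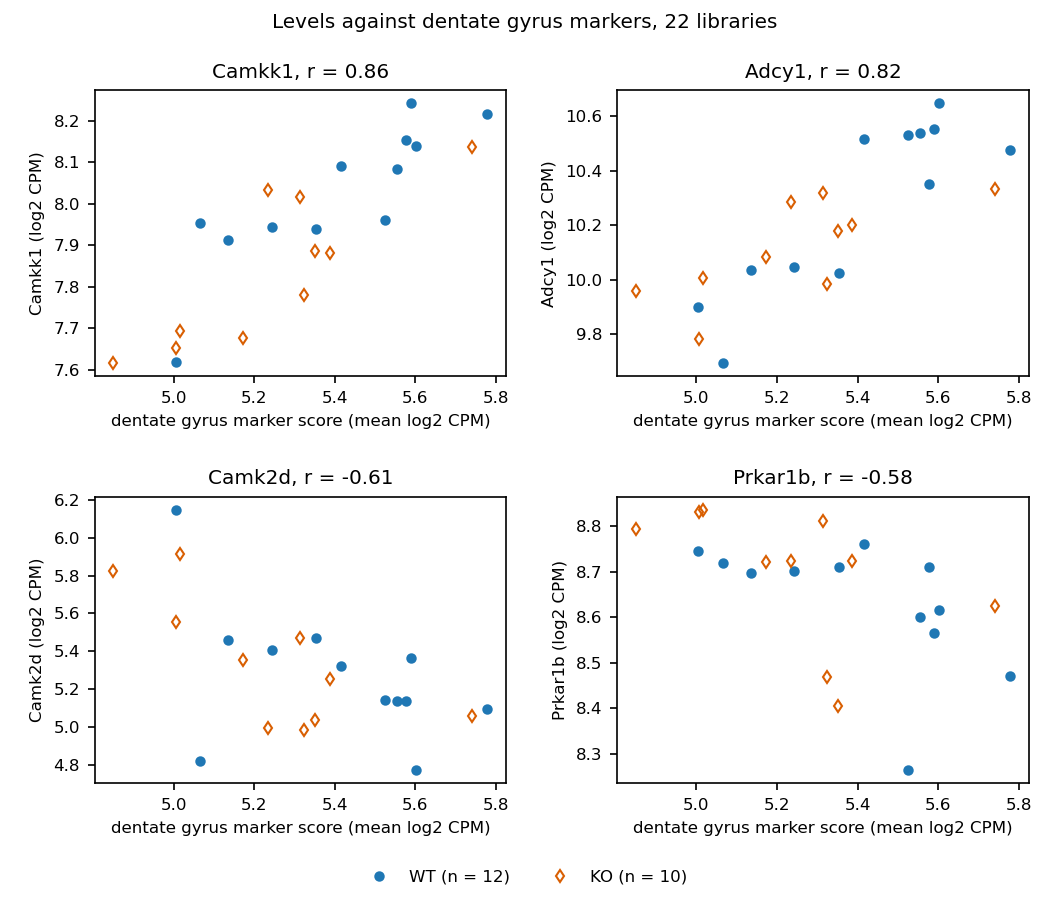
Log2 CPM of Camkk1, Adcy1, Camk2d and Prkar1b against the dentate gyrus marker score (mean log2 CPM of 9 markers) in the 22 libraries without KO library 8; filled circles are WT (n = 12), open diamonds KO (n = 10). The upper genes rise with the score (r = 0.86 and 0.82) and the lower genes fall (r = -0.61 and -0.58). Points of both genotypes overlap in each panel, and the slopes were not compared.

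With the CA1 score, Homer3 (r = -0.715, permutation p = 0.00027, adjusted 0.00474; rho = -0.692, permutation p = 0.0005) and Crtc1 (r = -0.634, permutation p = 0.00221, adjusted 0.0228; rho = -0.613, permutation p = 0.00325) fell. Their r was -0.598 and -0.45 within WT, -0.801 and -0.74 within KO, and -0.703 and -0.662 without the farthest 2. Adcy8 rose (r = 0.566, permutation p = 0.00602, adjusted 0.0365), although its rho of 0.464 (permutation p = 0.0303, adjusted 0.132) did not pass, and r was 0.49 without the farthest 2. The remaining gene that fell with the CA1 score was Camk2b (r = -0.559), whose rho of -0.465 did not pass (adjusted permutation p = 0.132). Camk2d had r = 0.448 (permutation p = 0.0356, adjusted 0.125) and rho = 0.56 (permutation p = 0.00774, adjusted 0.0476). With KO library 8 included, r with this score turned to 0.603 for Homer3, 0.468 for Crtc1, -0.294 for Adcy8 and -0.463 for Camk2d.

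With the CA3 score, Prkcz (r = -0.624, permutation p = 0.00215, adjusted 0.0228; rho = -0.617, permutation p = 0.00298) and Prkar1b (r = -0.569, permutation p = 0.00632, adjusted 0.0365; rho = -0.583, permutation p = 0.0051) fell. So did Camk2d by r (-0.548, adjusted permutation p = 0.0405) but not by rho (-0.51, adjusted permutation p = 0.0878). For Prkcz and Prkar1b r was weaker within WT (-0.347 and -0.351) than within KO (-0.776 and -0.719), a difference that was not tested, and it was -0.611 and -0.51 without the farthest 2. Homer3 (r = 0.53, permutation p = 0.0106; rho = 0.491, permutation p = 0.022) and Crtc1 (r = 0.482, permutation p = 0.0225; rho = 0.482, permutation p = 0.0243) had adjusted values of 0.0521 and 0.0954 for r and 0.108 and 0.115 for rho. Without the farthest 2 libraries their r was 0.425 and 0.334. With KO library 8 included, r with this score turned to 0.517 for Prkcz. It kept its sign for Prkar1b (-0.77), Homer3 (0.836) and Crtc1 (0.801).

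The dentate gyrus score itself was on average lower in KO. Its mean was 5.40 in WT (range 5.005 to 5.78) and 5.24 in the 10 KO libraries (4.85 to 5.74), and its 9 markers summed to 509 to 834 CPM and 465 to 814 CPM. Without KO library 8, 7 of the 9 markers had a log2 fold change below 0 (48.4% of all tested genes), with a median of -0.19, and 3 had an unadjusted edgeR p below 0.05 (4.11% of all tested genes). A fit with this score as covariate, chosen after the correlations were seen, gave 0 of 41 genes at an unadjusted p below 0.05 in edgeR, where the background was 2.27%, so a count of 0 is near it. In it Camkk1 was at -0.08 (95% interval -0.18 to 0.01, p = 0.0834), Dlg3 at -0.05 (-0.12 to 0.01) and Adcy1 at -0.02 (-0.17 to 0.13). Of the 41 estimates, 28 lay nearer 0 than without the covariate. Many of these genes rose with the score in the same libraries and the score was lower in KO, so such a shift was built in. It was not counted over all tested genes and says nothing on the cause of the differences.

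For Camkk1 and Adcy1, which followed the dentate gyrus score most closely, and Camk2d, which moved against it, the 250 bases before the RefSeq transcription start are shown (GRCm38.p6, 5′ to 3′ on the gene's strand, all plus). They lie at chr11:73018738-73018987, chr11:7063183-7063432 and chr3:126596701-126596950. The Camk2d window lies inside the gene as annotated in GENCODE M21, which starts at chr3:126596302. The other windows end before their annotated genes start. Capitals mark GGGCGG (the GC box, bound by SP1) and TGACG (a half-site of the cyclic AMP response element), each searched on both strands.
Camkk1: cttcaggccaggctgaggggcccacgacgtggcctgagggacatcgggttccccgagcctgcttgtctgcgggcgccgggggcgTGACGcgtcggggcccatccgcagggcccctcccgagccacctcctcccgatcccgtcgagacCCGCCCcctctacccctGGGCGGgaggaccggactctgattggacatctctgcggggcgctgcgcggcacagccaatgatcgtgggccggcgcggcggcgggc
Adcy1: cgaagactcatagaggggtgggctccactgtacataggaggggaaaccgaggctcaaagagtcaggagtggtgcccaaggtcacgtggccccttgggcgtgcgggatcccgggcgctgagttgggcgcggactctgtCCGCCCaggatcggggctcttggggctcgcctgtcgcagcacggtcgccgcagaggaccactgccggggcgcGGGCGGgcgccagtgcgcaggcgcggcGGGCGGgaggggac
Camk2d: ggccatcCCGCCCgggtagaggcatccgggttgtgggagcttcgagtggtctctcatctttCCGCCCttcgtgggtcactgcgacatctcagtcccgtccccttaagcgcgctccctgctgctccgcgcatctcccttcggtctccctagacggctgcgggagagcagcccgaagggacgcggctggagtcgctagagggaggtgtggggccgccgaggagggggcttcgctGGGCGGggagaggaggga

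These windows held 2, 3 and 3 GC boxes, and the Camkk1 window 1 half-site. RefSeq promoters were matched for 30 of the 41 genes, 51 starts in all. The full cyclic AMP response element, TGACGTCA, was in 0 of the 51 windows and in 1.55% of all 32851 promoters. Its half-site TGACG, which every full element contains, was in 9 of 51 (17.6%) and in 17.8% of all promoters. GGGCGG was in 27 of 51 (52.9%) and in 32.7% of all. A match is a description of letters in the window, and no match says only that these letters are not there.

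The wider pathway was followed in 108 further listed genes of the same roles. In the fit of all 23 libraries, edgeR called 0 of 108 (background 0.0126%), and 10 had an unadjusted p below 0.05, 6 higher and 4 lower in KO (background 3.41% and 2.34%). DESeq2 and voom also called 0, with 10 and 30 at an unadjusted p below 0.05, where the background was 6.17% and 17.5%. Without KO library 8 edgeR called 0 and 3 reached an unadjusted p below 0.05, 1 higher and 2 lower (background 2.18% and 1.93%). With KO library 8 kept and the 5 choroid plexus libraries left out, 17 had an unadjusted p below 0.05 (background 9.14%). Without these and KO library 8 it was 9 (background 8.05%). The lower genes with the smallest p were Ephb2, a receptor for ephrins that shapes spines (log2 fold change -0.23, SE 0.0803), Prkcd, PKC delta, which is also on the thalamus marker list used here (-0.40, SE 0.181), and Sorbs2, a scaffold of the spine (-0.18, SE 0.0856). The higher ones were Camk1 (0.30, SE 0.114), the CaM kinase II inhibitor Camk2n2 (0.34, SE 0.149) and Camk1g (0.24, SE 0.107), each at an edgeR adjusted p of 0.781. Without KO library 8 these were -0.22, -0.37, -0.12, 0.17, 0.20 and 0.17 in the same order. The median log2 fold change of the 108 genes was -0.05 with that library and -0.02 without it.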

How the data were processed

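Estimated counts by Ensembl gene were deposited by the authors for all 23 libraries. Per the submitters' processing notes, bcl2fastq, STAR and build mm10 were used; versions, the counting program, its use of strand and the annotation are not given in the sources used here. The mRNA kit keeps strand, per the labels' protocols. In each library 24.6% to 27.2% of values above 0 had decimals.

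Whole-number rounding came before a test in edgeR 4.0.16 (R 4.3.3): filterByExpr, TMM scaling, robust quasi-likelihood F test, Benjamini-Hochberg adjustment over all tested genes (15828, or 15870 without KO library 8) and a threshold of 0.05. The step was tested on simulated data. CPM use TMM-scaled totals, and log2 CPM a prior count of 2. Exon lengths and positions come from GENCODE M21 (GRCm38), matched by identifier, and promoters from RefSeq. Ratios had 0.5 counts added. Permutation tests used 100000 resamples in numpy 2.4.6 and were two-sided. Over the 121 pairs of same-genotype libraries, chi-square divided by its degrees of freedom was at least 8.25, so no pair agreed within sampling noise. The genes and lists were chosen with earlier results of these data known. Named are the 41 genes, Ins2, the 3 pathway genes with the smallest p in each direction, and the 2 highest and 2 lowest correlations per score. Other names were chosen after their values were seen. Alternatives were RLE factors, DESeq2 1.42.0, limma 3.58.1 voom, 2 other filters, a threshold of 0.10, left-out libraries, and 1 covariate added later.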

Additional observations from a re-analysis of the deposited data

How the results depend on the processing

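None of the 41 genes was called in any of the 9 other fits or at a threshold of 0.10; the lowest adjusted p of any of them was 0.132, for Camkk1 with voom. Camkk1 was at an unadjusted p below 0.05 in all but the covariate fit. Over all genes, 2 were called, and 4 with DESeq2, 4 with voom, 1 without the 5 choroid plexus libraries and 1 with a mean of at least 50 counts. Of 369 fold changes of the 41 genes under 9 alternatives, 338 kept their sign and 31 changed it, in 14 genes, all of them uncalled. Without KO library 8 these were Shank1 0.018, Camk4 0.085, Prkacb -0.051, Prkar2b -0.10, Mapk3 0.019 and Nlgn1 0.0049. Without it and the choroid plexus libraries they were Shank1 0.0125, Camk4 0.0852, Prkcb 0.0095, Prkcz 0.0028, Prkacb -0.027, Prkar2b -0.045, Ppp3cb 0.0074 and Nlgn1 0.014. With the dentate gyrus covariate, an alternative chosen after seeing the data, they were Dlg1 -0.012, Dlgap1 0.011, Shank1 0.043, Camk2d -0.096, Camk4 0.0875, Prkacb -0.064, Prkar2b -0.13, Ppp1r1a 0.043, Mapk3 0.034, Nlgn1 0.045 and Nlgn3 0.0235. With voom they were Camk4 0.033, Prkacb -0.044 and Prkar2b -0.050. Camk4 was at 0.0006 with RLE, 0.0003 with DESeq2 and 0.0029 without a filter. With KO library 8 included, correlations turned to 0.603 (Homer3), -0.463 (Camk2d), -0.294 (Adcy8) and 0.468 (Crtc1) for CA1 and 0.517 (Prkcz) for CA3. The causes were not tested. The 18 ratio values under alternatives kept sign and side. No paired analysis was made because the labels state no pairing. The replicate numbers run as 1 series over both genotypes, so they do not show whether animals were paired. In data simulated for the 23 libraries 18% of changes of 1.2-fold were called. The changed genes were drawn from all tested genes, so this share may be too high for the 41 genes. Recovery without KO library 8 was not simulated.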

Other observations

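KO library 8 was the lowest library for 55 of the 108 further pathway genes (50.9%) and the highest for 24 (22.2%), against 26.2% and 19.5% of all tested genes. The share at the top was thus near that of all genes. Gap43, a growth cone protein that binds calmodulin, had 433 CPM there, against 96.7 ± 31.4 CPM in WT (SD, n = 12). Akap12, another PKA anchor, had 111 CPM against 20.8 ± 4.57 CPM (SD, n = 12), and Rcan3, a regulator of calcineurin, 111 CPM against 28.5 ± 4.71 CPM (SD, n = 12). The scaffold regulator Sipa1l1 was low, at 102 CPM against 400 ± 35.6 CPM (SD, n = 12). These genes were chosen after their values were seen, and 1 library allows no test.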
